A study of Mus musculus with 6 samples.

Results

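The 10 genes described here encode core parts of autophagy and of the lysosome: Ulk1, Becn1, Atg5, Atg7, Map1lc3b, Gabarapl1, Sqstm1, Tfeb, Lamp1 and Lamp2. They were chosen by name, each had 1 probeset annotated to that gene alone, and all 10 were among the 14020 genes tested. The series holds 6 mouse Gene ST arrays, 2 in each of 3 groups, and every array was hybridised with RNA from 10 blastocysts. All groups came from let7g-transgenic mice, so the controls carry the transgene too. D4-act-7g is activated blastocysts of day 4, Dor-7g is blastocysts that became dormant in vivo, sampled on day 7, and DOX-7g is blastocysts made dormant in culture by DOX-induced let-7, also sampled on day 7. The promoter that drives the transgene and the origin of the 2 arrays of a group are not given in the sources used here, so the p-values measure only the spread between these arrays. Day, culture, DOX and let-7 cannot be told apart in DOX-7g, and day cannot be told apart from dormancy in Dor-7g. The induced microRNA, whose seed (bases 2 to 8) decides which messages it binds, has the RefSeq mature sequence below (GRCm38.p6, chr9:106178846-106178867, plus strand, seed in capitals).
mmu-let-7g-5p: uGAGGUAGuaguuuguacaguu

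Diapause is a pause of the blastocyst before implantation, in which growth slows and the embryo stays alive on limited supplies. Autophagy encloses cytoplasm in a double membrane, the autophagosome, and delivers it to the lysosome, where acid hydrolases break it down to reusable parts. The ULK1 kinase starts the process, the Beclin 1 lipid kinase complex marks the membrane, a ubiquitin-like conjugation system (ATG7, ATG5 and partners) attaches Atg8-family proteins such as LC3B to it, receptors such as p62 bring cargo, and fusion with a LAMP-coated lysosome completes it. TFEB is a transcription factor of lysosome and autophagy genes. Transcript levels do not measure autophagic flux.

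The deposited values are log2 expression, and a difference of group means on that scale is given below with its SE from limma. A gene passed where its Benjamini-Hochberg adjusted p over all genes was under 0.05. Dor-7g replicate 1 had a median of 4.87 over probesets, and the other 5 arrays 4.62 to 4.67. With arrays centred on their medians, the median difference of all genes moved from 0.06 to -0.07 in Dor-7g against D4-act-7g and from -0.11 to 0.02 in DOX-7g against Dor-7g. Differences below are on the deposited scale. The 2 Dor-7g arrays correlated at 0.919 over probesets, against 0.978 in D4-act-7g and 0.969 in DOX-7g. A list of 8 measured housekeeping genes had a median of 6.68 on Dor-7g replicate 1, 8.33 on Dor-7g replicate 2 and 8.63 to 9.34 on the other arrays. The purine salvage gene Hprt was at 4.10 and 8.93 on the Dor-7g arrays and at 9.44 to 11.61 on the others. The median exaggerates the shift, because Hprt moved from the upper to the lower part of a list of widely spaced genes. From D4-act-7g replicate 1 to Dor-7g replicate 1, Actb went from 5.72 to 5.59 and Gapdh from 11.79 to 11.29. Eef2 went from 8.34 to 7.77, Pgk1 from 9.11 to 8.47 and Eef1a1 from 13.38 to 11.86. The part of this library difference in the values below was not tested. Values without a Dor-7g array are given for the core genes listed above whose call depended on it. They are given as sizes only, because 1 array is then left in that group. Calcoco2 and Stx17, described further below, were also fitted without each array. For the other pathway genes below, calls without a Dor-7g array were not examined, and their calls are those of the fit to all 6 arrays. Of 15 blastocyst markers, 11 were at or above the array median on all 6 arrays, among them Cdx2, Krt8, Krt18, Nanog and Gata6, while Sox2 and Esrrb were below it on all 6. The probeset of the let-7g precursor lay between 3.20 and 3.59 on all 6 arrays, below every array's median. It does not measure the mature microRNA and checks no label.

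None of the 10 genes passed the threshold in any comparison. The differences from D4-act-7g above 1 log2 unit were those of Atg5, Map1lc3b and Lamp1 in Dor-7g and of Map1lc3b and Lamp2 in DOX-7g. In Dor-7g, the mean of Atg5 was higher and those of Map1lc3b and Lamp1 lower. In DOX-7g, the means of Map1lc3b and Lamp2 were lower. Ulk1, Becn1, Atg7, Gabarapl1 and Tfeb differed from D4-act-7g by at most 0.51 in either group.

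**Figure D1:**
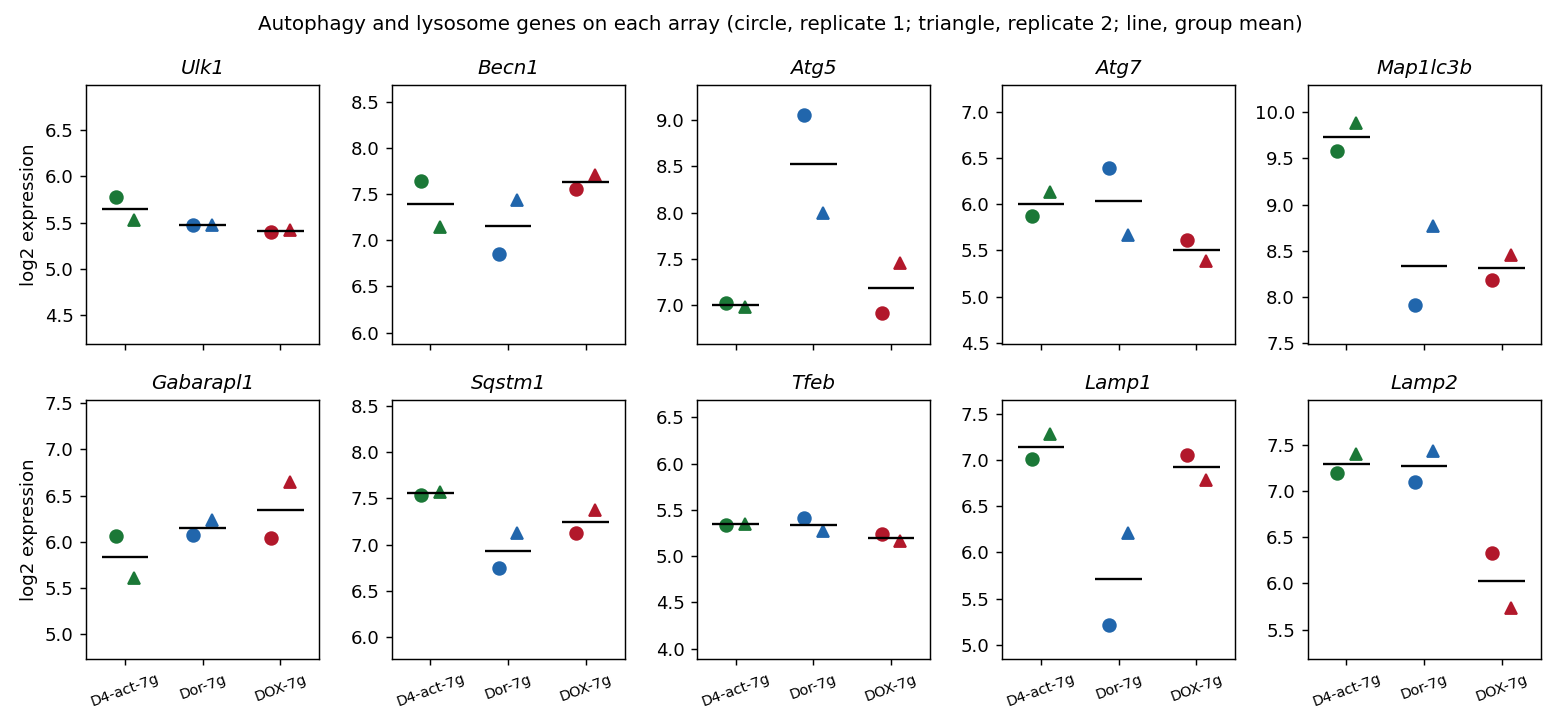
log2 expression of each gene (vertical axis, the same span in every panel) on the 2 arrays of each group; circles are replicate 1, triangles replicate 2 and lines group means. Map1lc3b lies above 9.5 only in D4-act-7g, Atg5 at 8.0 and 9.05 in Dor-7g, Lamp1 at 5.21 and 6.21 in Dor-7g and Lamp2 at 5.73 and 6.33 in DOX-7g.

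Ulk1, the kinase that starts autophagosome formation, was measured at 5.78 and 5.53 on D4-act-7g arrays, 5.47 and 5.48 on Dor-7g arrays, and 5.40 and 5.42 on DOX-7g arrays. All 4 dormant arrays lay below both day-4 arrays, with a gap of 0.05 to Dor-7g and 0.11 to DOX-7g. The differences from D4-act-7g were -0.18 ± 0.18 in Dor-7g (limma, adjusted p = 0.675; 95% confidence interval -0.61 to 0.26) and -0.24 ± 0.18 in DOX-7g (limma, adjusted p = 0.757; -0.68 to 0.19). Its partner Atg101 differed by -0.06 ± 0.18 and -0.15 ± 0.18. Ulk2, a second ULK kinase, was dim, at 4.27 to 4.74.

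Becn1, which encodes Beclin 1 of the lipid kinase complex that nucleates the membrane, stood at 7.64 and 7.14 on D4-act-7g arrays, 6.85 and 7.44 on Dor-7g arrays, and 7.55 and 7.71 on DOX-7g arrays. Its group means ran from Dor-7g (7.15) through D4-act-7g (7.39) to DOX-7g (7.63), and neither neighbour in that order was separated beyond the spread of the arrays. The difference was -0.24 ± 0.28 for Dor-7g and 0.24 ± 0.28 for DOX-7g against D4-act-7g (limma, adjusted p = 0.72 and 0.89). Atg14, the subunit that directs this complex to autophagosome formation, was at 5.71 and 5.51 on D4-act-7g arrays, 4.6 and 4.54 on Dor-7g arrays, and 4.72 and 4.91 on DOX-7g arrays. Both dormant groups lay below D4-act-7g without overlap, by -1.04 ± 0.18 (limma, adjusted p = 0.0785) and -0.79 ± 0.18 (limma, adjusted p = 0.167). Uvrag, which binds Beclin 1 in another complex, differed by -0.61 ± 0.31 in Dor-7g, and Ambra1, a Beclin 1 regulator, by -0.37 ± 0.20 in DOX-7g.

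Atg5, which is joined to Atg12 to form the enzyme that attaches Atg8-family proteins to lipid, was at 7.02 and 6.98 on D4-act-7g arrays, 9.05 and 8.0 on Dor-7g arrays, and 6.91 and 7.45 on DOX-7g arrays. Both Dor-7g arrays lay above all 4 others, and the gap to the nearest D4-act-7g array was 0.98. The difference between Dor-7g and D4-act-7g was 1.53 ± 0.38, a 2.88-fold higher level (limma, adjusted p = 0.17; 95% confidence interval 0.58 to 2.47). It was 1.0 without Dor-7g replicate 1 and 2.05 without Dor-7g replicate 2. In no alternative that kept both arrays of both groups did it pass (limma, adjusted p of 0.14 to 0.265). DOX-7g differed from D4-act-7g by 0.18 ± 0.38 (limma, adjusted p = 0.959) and from Dor-7g by -1.35 ± 0.38 (limma, adjusted p = 0.281). The latter was -0.82 without Dor-7g replicate 1 and -1.88 without Dor-7g replicate 2, and did not pass where both arrays of both groups were kept.

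Atg12 was measured at 8.03 and 8.63 on D4-act-7g arrays, 4.52 and 6.73 on Dor-7g arrays, and 8.37 and 8.23 on DOX-7g arrays. It was low on the arrays where Atg5 was high, but the Dor-7g arrays lay far apart, and the array with the lower value was the one on which Hprt was at 4.10. The difference between Dor-7g and D4-act-7g was -2.70 ± 0.69 (limma, adjusted p = 0.174). Atg3, the enzyme that transfers the Atg8 proteins, was at 7.23 and 7.11 in D4-act-7g and at 7.78 and 7.71 in Dor-7g, a difference of 0.57 ± 0.20 (limma, adjusted p = 0.279). Atg16l1, the third part of the Atg12-Atg5 enzyme, differed by 0.10 ± 0.21 in Dor-7g and by -0.11 ± 0.21 in DOX-7g.

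Atg7, the activating enzyme at the head of this conjugation system, stood at 5.87 and 6.13 on D4-act-7g arrays, 6.39 and 5.67 on Dor-7g arrays, and 5.61 and 5.39 on DOX-7g arrays. The 2 Dor-7g arrays enclosed both D4-act-7g arrays, while both DOX-7g arrays lay below all others. DOX-7g differed from D4-act-7g by -0.50 ± 0.28 (limma, adjusted p = 0.65; 95% confidence interval -1.20 to 0.20) and Dor-7g by 0.03 ± 0.28 (limma, adjusted p = 0.966). DOX-7g differed from Dor-7g by -0.53 ± 0.28 (limma, adjusted p = 0.519).

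Map1lc3b, which encodes the autophagosome protein LC3B, was measured at 9.58 and 9.88 on D4-act-7g arrays, 7.91 and 8.77 on Dor-7g arrays, and 8.18 and 8.46 on DOX-7g arrays. All 4 dormant arrays lay below both day-4 arrays, with gaps of 0.81 and 1.11, and the dormant groups overlapped each other. Dor-7g was lower by a mean of -1.39 ± 0.32, a 2.61-fold lower level (limma, adjusted p = 0.148; 95% confidence interval -2.18 to -0.59). DOX-7g was lower by -1.41 ± 0.32, or 2.65-fold (limma, adjusted p = 0.172; -2.20 to -0.61). These 2 comparisons share the D4-act-7g arrays. The DOX-7g difference passed with only the 4 arrays compared (limma, adjusted p = 0.0429) and with array weights (0.0294). In those fits 296 and 461 of all genes passed, against 134 in the main fit. Under the other scalings, filters, probeset rule and variance model and with a replicate block it did not pass (limma, adjusted p of 0.133 to 0.257). The Dor-7g difference was -0.95 without Dor-7g replicate 1 and -1.82 without Dor-7g replicate 2. It did not pass where both arrays of both groups were kept (limma, adjusted p of 0.123 to 0.261).

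Gabarapl1, a second Atg8-family gene, was at 6.06 and 5.61 on D4-act-7g arrays, 6.07 and 6.24 on Dor-7g arrays, and 6.04 and 6.65 on DOX-7g arrays. Its mean was higher in both dormant groups, by 0.32 ± 0.28 and 0.51 ± 0.28 (limma, adjusted p = 0.632 and 0.626), but the DOX-7g arrays overlapped those of D4-act-7g and the gap for Dor-7g was 0.01. Map1lc3a, the gene of LC3A, was at 9.16 and 9.03 in D4-act-7g and between 8.17 and 8.67 on the 4 dormant arrays, lower by -0.67 ± 0.22 in Dor-7g and -0.49 ± 0.22 in DOX-7g (limma, adjusted p = 0.26 and 0.521). Gabarapl2 differed by -0.52 ± 0.24 and -0.27 ± 0.24, and Gabarap by -0.06 ± 0.33 and 0.29 ± 0.33.

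Sqstm1, which encodes the cargo receptor p62, stood at 7.54 and 7.57 on D4-act-7g arrays, 6.75 and 7.12 on Dor-7g arrays, and 7.12 and 7.37 on DOX-7g arrays. The 4 dormant arrays lay below both day-4 arrays, and the group means ran from D4-act-7g (7.56) through DOX-7g (7.24) to Dor-7g (6.93). The difference was -0.62 ± 0.21 in Dor-7g (limma, adjusted p = 0.261; 95% confidence interval -1.13 to -0.11) and -0.31 ± 0.21 in DOX-7g (limma, adjusted p = 0.716; -0.82 to 0.20). Between DOX-7g and Dor-7g the highest Dor-7g array and the lowest DOX-7g array were both at 7.12, so these neighbours did not differ beyond their spread. The p62 protein is itself consumed by autophagy, and the array does not measure it.

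Tfeb was the least variable of the 10 genes, at 5.34 and 5.35 on D4-act-7g arrays, 5.41 and 5.27 on Dor-7g arrays, and 5.24 and 5.16 on DOX-7g arrays, a range of 0.25 over the 6 arrays. The difference from D4-act-7g was -0.01 ± 0.17 in Dor-7g (95% confidence interval -0.42 to 0.41) and -0.14 ± 0.17 in DOX-7g (-0.56 to 0.27; limma, adjusted p = 0.988 and 0.887). TFEB is controlled largely by its phosphorylation and its entry into the nucleus, which the array does not measure. Tfe3 and Mitf, related factors, differed by 0.41 ± 0.18 and 0.32 ± 0.32 in Dor-7g and by 0.29 ± 0.18 and 0.00 ± 0.32 in DOX-7g. Foxo3, another transcription factor of autophagy genes, was at 8.83 and 8.29 on D4-act-7g arrays, 7.20 and 7.62 on Dor-7g arrays, and 7.68 and 7.86 on DOX-7g arrays. Its differences of -1.15 ± 0.26 and -0.79 ± 0.26 did not pass (limma, adjusted p = 0.144 and 0.351).

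Lamp1 and Lamp2 encode the main glycoproteins that coat the lysosome membrane, and the lowest arrays were those of Dor-7g for Lamp1 and those of DOX-7g for Lamp2. Lamp1 was at 7.01 and 7.28 on D4-act-7g arrays, 5.21 and 6.21 on Dor-7g arrays, and 7.05 and 6.78 on DOX-7g arrays. Both Dor-7g arrays lay below all 4 others, and DOX-7g overlapped D4-act-7g. The Dor-7g difference from D4-act-7g was -1.43 ± 0.35, a 2.70-fold lower level (limma, adjusted p = 0.162; 95% confidence interval -2.30 to -0.56). It was -0.93 without Dor-7g replicate 1 and -1.93 without replicate 2. In no alternative that kept both arrays of both groups did it pass (limma, adjusted p of 0.135 to 0.283). DOX-7g differed from D4-act-7g by -0.23 ± 0.35 (limma, adjusted p = 0.929).

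Lamp2, one of whose isoforms serves chaperone-mediated autophagy, was at 7.19 and 7.40 on D4-act-7g arrays, 7.10 and 7.43 on Dor-7g arrays, and 6.33 and 5.73 on DOX-7g arrays. Here both DOX-7g arrays lay below all 4 others, and Dor-7g enclosed D4-act-7g. DOX-7g was lower than D4-act-7g by -1.26 ± 0.27, or 2.40-fold (limma, adjusted p = 0.142; 95% confidence interval -1.92 to -0.61). The difference passed with array weights (limma, adjusted p = 0.0426), where 461 of all genes passed, against 134 in the main fit. In the other alternatives that kept both arrays of both groups it did not pass (limma, adjusted p of 0.0966 to 0.256). DOX-7g differed from Dor-7g by -1.23 ± 0.27 (limma, adjusted p = 0.159), whereas Lamp1 differed by 1.20 ± 0.35 between the same groups (limma, adjusted p = 0.294). That Lamp1 difference was 0.71 without Dor-7g replicate 1 and 1.70 without Dor-7g replicate 2, and did not pass where both arrays of both groups were kept. The probeset does not separate the isoforms in the table used here.

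The difference between both genes within an array does not depend on a shift common to all values of that array. It is not free of departures of an array that vary from gene to gene, as on Dor-7g replicate 1. Lamp2 minus Lamp1 was 0.18 and 0.13 on the D4-act-7g arrays, 1.89 and 1.22 on the Dor-7g arrays, and -0.71 and -1.05 on the DOX-7g arrays. The pair was chosen after its values were seen to differ, so these differences restate the values above and were not tested.

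**Figure D2:**
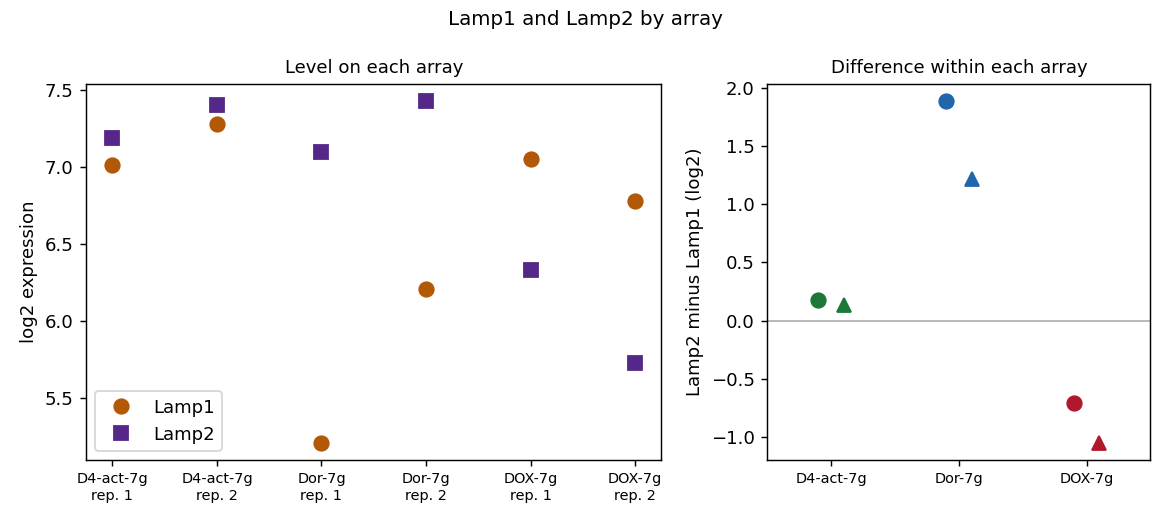
Left, log2 expression of Lamp1 (circles) and Lamp2 (squares) on each of the 6 arrays; right, Lamp2 minus Lamp1 within each array (circle, replicate 1; triangle, replicate 2). The D4-act-7g arrays lie at 0.13 and 0.18, the Dor-7g arrays at 1.22 and 1.89 and the DOX-7g arrays at -1.05 and -0.71.

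The RefSeq windows of 250 bases before a transcript start (GRCm38.p6, 1 start per window) are shown for Lamp1, Lamp2, Atg5 and Map1lc3b, the genes with a difference above 1 log2 unit, with the E-box CACGTG, the core of the sequence that TFEB-family factors bind, in capitals. CACGTG reads the same on both strands.
Lamp1, chr8:13158911-13159160, plus strand: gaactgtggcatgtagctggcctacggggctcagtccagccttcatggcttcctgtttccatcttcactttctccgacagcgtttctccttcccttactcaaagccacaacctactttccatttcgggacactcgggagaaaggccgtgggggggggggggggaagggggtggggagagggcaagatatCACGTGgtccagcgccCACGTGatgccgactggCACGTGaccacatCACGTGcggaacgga
Lamp2, chrX:38456461-38456710, minus strand: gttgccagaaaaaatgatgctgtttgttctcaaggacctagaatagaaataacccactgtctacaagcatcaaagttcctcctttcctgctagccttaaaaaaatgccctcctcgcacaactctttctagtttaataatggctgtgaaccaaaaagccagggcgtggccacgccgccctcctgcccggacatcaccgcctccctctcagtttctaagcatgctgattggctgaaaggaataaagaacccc
Atg5, chr10:44268089-44268338, plus strand: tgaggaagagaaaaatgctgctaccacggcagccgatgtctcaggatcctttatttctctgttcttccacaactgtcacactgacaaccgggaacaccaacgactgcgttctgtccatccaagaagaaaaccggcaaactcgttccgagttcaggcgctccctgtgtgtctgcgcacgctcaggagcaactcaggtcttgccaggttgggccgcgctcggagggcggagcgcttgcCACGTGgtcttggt
Map1lc3b, chr8:121590188-121590437, plus strand: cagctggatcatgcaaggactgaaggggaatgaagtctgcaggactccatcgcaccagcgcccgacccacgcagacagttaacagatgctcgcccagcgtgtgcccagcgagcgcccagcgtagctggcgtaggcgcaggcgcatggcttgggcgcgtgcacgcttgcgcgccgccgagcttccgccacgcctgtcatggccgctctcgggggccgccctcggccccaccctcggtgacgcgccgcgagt

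Lamp1 had 4 CACGTG matches, which began 61, 45, 28 and 15 bases before the start, and Lamp2 had none. Of all 32851 windows of this length, 6.02% held at least 1 match and 7 windows held 4 or more. Atg5 had 1 match, which began 14 bases before the transcript start of its window. The RefSeq gene record of Atg5 begins slightly upstream of that start, so this match lies just inside the record. Map1lc3b had none. Of the 9 genes with a window in the table, 3 held a match, Lamp1, Atg5 and Atg7. The Atg7 window precedes a transcript start far inside the gene record, so it is not the sequence before the gene's first start. The longer GTCACGTG, which contains CACGTG and was searched on both strands, was found in the windows of Lamp1 and Atg7, against 1.85% of all windows. Of 64 lysosome genes with a window, 17 (26.6%) held CACGTG and 13 (20.3%) held GTCACGTG in at least 1 window. These counts are per gene, and a gene with several windows has more chances to hold a match. The shares of 6.02% and 1.85% are per window, so they are not a like measure. A match is a run of letters in a sequence and was not tied to any of the differences above.

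In Dor-7g against D4-act-7g, 0 of the 10 genes passed by limma, where 0.984% of all genes tested did (0.243% higher and 0.742% lower). The unadjusted limma p was under 0.05 for 4 of 10 genes (Atg5 higher; Map1lc3b, Sqstm1 and Lamp1 lower), where it was for 14.3% of all genes (5.44% higher and 8.81% lower). The arrays of the 2 groups did not overlap for 6 of 10 genes, 2 higher and 4 lower, against 45.8% of all genes (24.3% higher and 21.5% lower). The median difference of the 10 genes was -0.10, beside 0.06 over all genes, and the median absolute difference was 0.28, beside 0.26.

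In DOX-7g against D4-act-7g, 0 of 10 genes passed by limma, where 0.956% of all genes did (0.706% higher and 0.25% lower). The unadjusted limma p was under 0.05 for Map1lc3b and Lamp2, 2 of 10, both lower, where it was for 11% of all genes (4.61% higher and 6.4% lower). The arrays did not overlap for 6 genes, all lower in DOX-7g, where 49.7% of all genes did not overlap (19.2% higher and 30.5% lower). The median difference was -0.23, beside -0.05 over all genes, and the median absolute difference was 0.28, beside 0.20.

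In DOX-7g against Dor-7g, 0 of 10 genes passed by limma, where 1.16% of all genes did (1.04% higher and 0.121% lower). The unadjusted limma p was under 0.05 for 3 of 10 (Lamp1 higher; Atg5 and Lamp2 lower), where it was for 11.6% of all genes (6.06% higher and 5.53% lower). The arrays did not overlap for 8 genes, 3 higher and 5 lower in DOX-7g, against 41.7% of all genes (15% higher and 26.7% lower). Among the higher genes, Sqstm1 had a gap of 0.00 after rounding. The median difference was -0.04, beside -0.11 over all genes, and the median absolute difference was 0.40, beside 0.25. The 2 arrays of a group differed by a median of 0.48 over the 10 genes in Dor-7g, and by 0.26 in both other groups, against 0.36 in Dor-7g, 0.17 in D4-act-7g and 0.20 in DOX-7g over all genes.

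**Figure D3:**
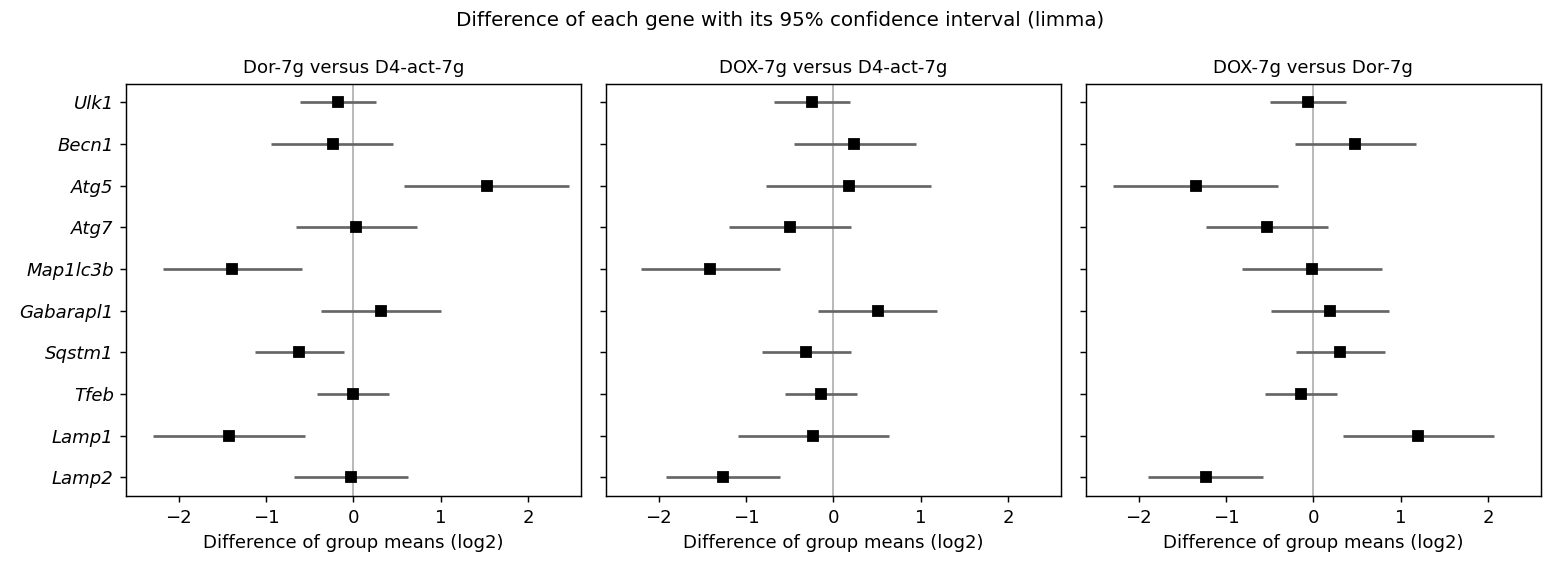
Difference of group means (horizontal axis, log2) of each gene with its 95% confidence interval from limma in the 3 comparisons. The intervals of Map1lc3b lie below 0 in both comparisons with D4-act-7g, those of Atg5 above 0 and of Lamp1 and Sqstm1 below 0 in Dor-7g against D4-act-7g, and those of Lamp2 below 0 in both comparisons of DOX-7g; none passed after adjustment over 14020 genes.

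Other genes of the pathway were taken from 13 lists by role, of which 120 genes besides the 10 were tested. Calcoco2, which encodes a cargo receptor known from human cells, was the gene that passed in both comparisons with D4-act-7g. It was at 8.02 and 7.71 on D4-act-7g arrays, 5.22 and 5.09 on Dor-7g arrays, and 5.81 and 5.35 on DOX-7g arrays. It fell by 2.71 ± 0.23 in Dor-7g (limma, adjusted p = 0.0103). It also fell by 2.28 ± 0.23 in DOX-7g (limma, adjusted p = 0.0161). Leaving out either D4-act-7g array ended both calls (limma, adjusted p of 0.0829 to 0.156), and leaving out either DOX-7g array ended the second (0.057 and 0.0992). All 4 dormant arrays lay more than 1 log2 unit below both day-4 arrays.

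Stx17, the membrane fusion protein that autophagosomes carry to join the lysosome, was the gene that passed between the dormant groups. It was at 6.53 and 6.72 on D4-act-7g arrays, 6.99 and 7.29 on Dor-7g arrays, and 5.67 and 5.27 on DOX-7g arrays. Its arrays separated all 3 groups, and DOX-7g was lower than Dor-7g by -1.67 ± 0.22 (limma, adjusted p = 0.036). That call was lost with arrays centred on their medians (-1.54; limma, adjusted p = 0.0907), with array weights (0.0945), with a replicate block (0.0948), with only the 4 arrays compared (0.118) and without any of the D4-act-7g or DOX-7g arrays (0.103 to 0.195). Of its partners in fusion, Snap29 differed by 0.74 ± 0.29 between DOX-7g and Dor-7g, and Vamp8 by 0.57 ± 0.22 between DOX-7g and D4-act-7g (limma, adjusted p = 0.421 and 0.422).

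Among the 120 genes the shares stood near those of all genes. The unadjusted limma p was under 0.05 for 7 higher and 11 lower genes in Dor-7g against D4-act-7g (15% of 120, beside 14.3% of all genes), for 3 higher and 11 lower in DOX-7g against D4-act-7g (11.7%, beside 11%), and for 4 higher and 10 lower in DOX-7g against Dor-7g (11.7%, beside 11.6%). By direction, the shares of all genes were 5.44% higher and 8.81% lower, 4.61% and 6.4%, and 6.06% and 5.53% in the same order. The arrays of DOX-7g lay below those of D4-act-7g for 48 of the 120 and above them for 17, beside 30.5% and 19.2% of all genes. The median differences of the 120 genes were 0.00, -0.12 and -0.12, beside 0.06, -0.05 and -0.11 over all genes.

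By role, the 5 Atg8-family genes, Map1lc3b and Gabarapl1 included, had medians of -0.52 in Dor-7g and -0.27 in DOX-7g against D4-act-7g. The genes that supply membrane to the autophagosome had medians of -0.37 and -0.35, beside 0.06 and -0.05 over all genes. Of 9 tested, 7 and 8 were below 0 and none passed the threshold. How many of all genes lay below 0 was not counted. Outside these and the lysosome lists, list medians ran from -0.25 to 0.10 in Dor-7g and from -0.22 to 0.00 in DOX-7g. Tmem41b, a lipid scramblase of the endoplasmic reticulum, was at 6.59 and 5.95 in D4-act-7g and between 5.09 and 5.24 on the 4 dormant arrays, with differences of -1.06 ± 0.25 and -1.11 ± 0.25 (limma, adjusted p = 0.151 and 0.165). Among cargo receptors, the mitochondrial receptor gene Fundc1 was at 4.75 and 4.57 in D4-act-7g and at 5.82 and 6.64 in DOX-7g (1.57 ± 0.34; limma, adjusted p = 0.151). Bnip3, another mitochondrial receptor, was at 7.96 and 7.53 in D4-act-7g and at 6.46 and 7.09 in Dor-7g (-0.97 ± 0.28; limma, adjusted p = 0.211). For the energy sensor AMPK, which activates ULK1, the subunit gene Prkag2 differed by 1.11 ± 0.29 in Dor-7g, and Stk11, which encodes the kinase LKB1 upstream of it, by -0.58 ± 0.22 (limma, adjusted p = 0.186 and 0.314).

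Of 16 lysosome membrane genes, Lamp1 and Lamp2 included, 15 had a difference below 0 in DOX-7g against D4-act-7g and 10 in Dor-7g. Their medians were -0.24 and -0.26, beside -0.05 and 0.06 over all genes, and none passed the threshold. Here too the share of all genes below 0 was not counted. The arrays of DOX-7g lay below those of D4-act-7g for 9 of the 16, where 30.5% of all genes did. The arrays of Dor-7g lay below them for 5 of the 16 and above them for 3, where 21.5% and 24.3% of all genes did. Scarb2, the receptor that carries glucocerebrosidase to the lysosome, was at 7.87 and 7.51 on D4-act-7g arrays, 6.83 and 7.18 on Dor-7g arrays, and 6.47 and 6.38 on DOX-7g arrays, and its DOX-7g difference was -1.27 ± 0.22 (limma, adjusted p = 0.0846). The 14 genes of the V-ATPase, the pump that acidifies the lysosome, had medians of 0.00 and -0.13, and the subunit gene Atp6v1c1 differed by 0.75 ± 0.25 in Dor-7g (limma, adjusted p = 0.266).

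For the enzymes inside the lysosome, the medians in Dor-7g against D4-act-7g were 0.18 for 14 cathepsins and their inhibitors, with 11 above 0, and 0.18 for 18 other hydrolase genes, with 13 above 0, beside 0.06 over all genes, and none passed. How many of all genes lay above 0 was not counted. Centring the arrays moved the median of all genes from 0.06 to -0.07 in this comparison, and the counts above 0 were not repeated on that scale. In DOX-7g these medians were 0.04 and -0.06, beside -0.05 over all genes. Ggh, a hydrolase of folates, was at 5.68 and 5.54 on D4-act-7g arrays, 6.63 and 7.36 on Dor-7g arrays, and 7.03 and 6.99 on DOX-7g arrays, with differences of 1.39 ± 0.27 and 1.40 ± 0.27 (limma, adjusted p = 0.102 and 0.113). Fuca1, a fucosidase, was at 7.57 and 7.49 in D4-act-7g and at 8.37 and 9.11 in Dor-7g (1.21 ± 0.28; limma, adjusted p = 0.147). Ctsd, the aspartic protease cathepsin D, differed by -0.41 ± 0.25 and -0.59 ± 0.25.

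**Figure D4:**
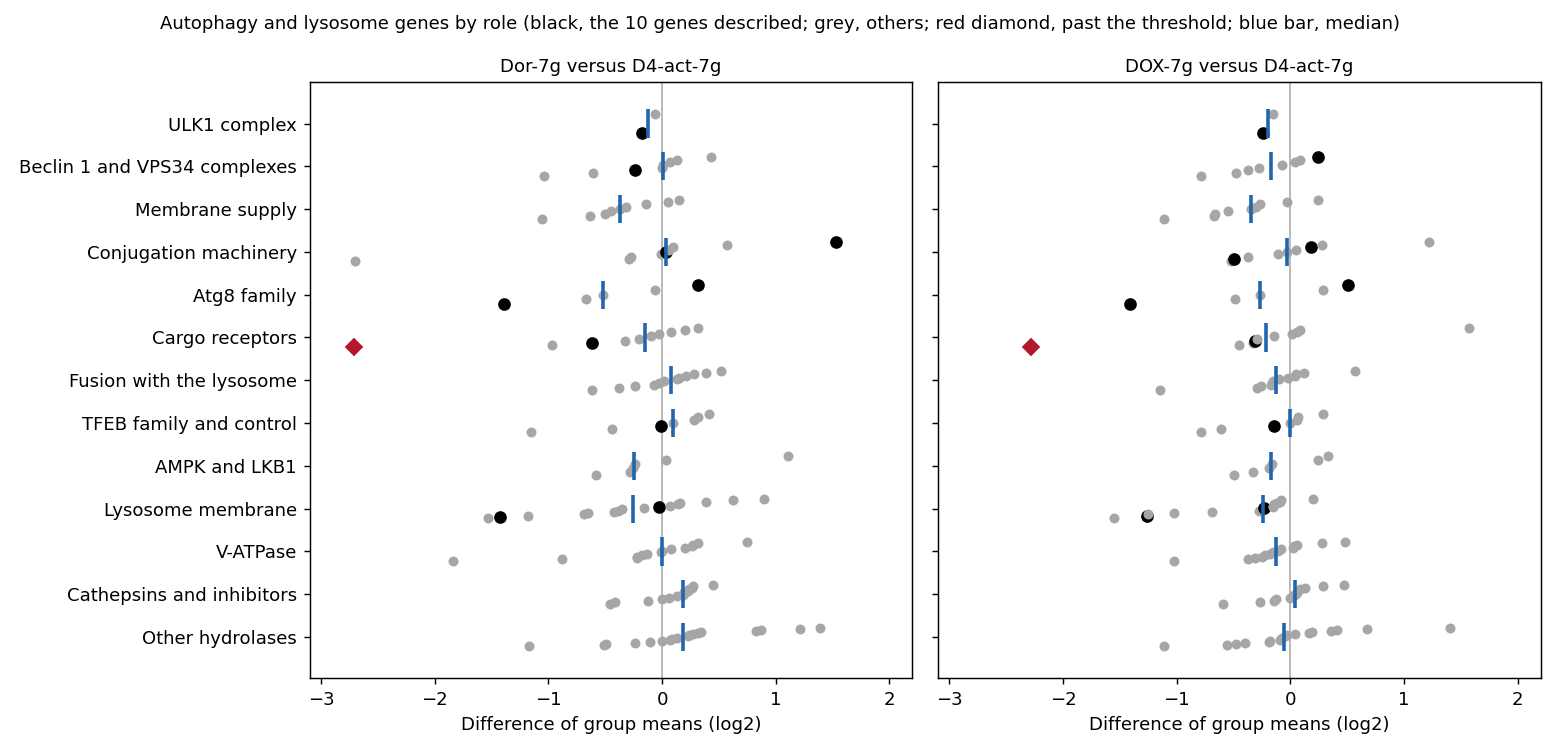
Difference of group means (horizontal axis, log2) of each tested gene, grouped by role, in Dor-7g and in DOX-7g against D4-act-7g; black points are the 10 genes described, grey points the other genes, red diamonds genes past the threshold and blue bars list medians. Calcoco2 is the red diamond in each panel, at -2.71 and -2.28, and most lists have a median within 0.4 of 0.

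The remaining genes among the 2 of smallest p in their list did not pass, the lowest adjusted p being that of Stx17 in DOX-7g against D4-act-7g (-1.15 ± 0.22; limma, adjusted p = 0.115). In Dor-7g against D4-act-7g, Snap29 differed by -0.62 ± 0.29, Stx17 by 0.52 ± 0.22, Zfyve1 of the membrane supply list by -0.50 ± 0.22, Scarb2 by -0.69 ± 0.22, the V-ATPase accessory gene Atp6ap2 by -1.84 ± 0.84 and the cathepsin gene Ctsz by -0.46 ± 0.20. Atp6ap2 was at 5.35 on Dor-7g replicate 1 and at 7.94 on Dor-7g replicate 2. In DOX-7g against D4-act-7g, the LC3 protease gene Atg4b differed by -0.37 ± 0.19, Atg16l2 by -0.52 ± 0.20, the phosphoinositide-binding gene Wdr45 by -0.55 ± 0.18, the transcription factor gene Foxo1 by -0.61 ± 0.28, and the AMPK genes Prkaa1 by -0.50 ± 0.32 and Stk11 by -0.33 ± 0.22. The V-ATPase genes Atp6v0d1 and Atp6v1g1 differed there by 0.48 ± 0.24 and -0.37 ± 0.23, the protease gene Ctsb by 0.29 ± 0.17 and the cholesterol carrier gene Npc2 by -0.48 ± 0.21.

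Between DOX-7g and Dor-7g, the differences above 1 log2 unit among these genes were those of Atg12 (2.67 ± 0.69), Fundc1 (1.37 ± 0.34) and Bnip3 (1.03 ± 0.28; limma, adjusted p of 0.211 to 0.247). Lower in DOX-7g were Atp6v1c1 (-0.86 ± 0.25), Fuca1 (-0.80 ± 0.28), Prkag2 (-0.78 ± 0.29), Npc2 (-0.71 ± 0.21), Pik3r4 of the lipid kinase complex (-0.55 ± 0.27), Ambra1 (-0.50 ± 0.20), Atp6v1g1 (-0.45 ± 0.23), Wdr45 (-0.41 ± 0.18), Flcn (-0.22 ± 0.18) and Atg101 (-0.09 ± 0.18). Higher were Ctsz (0.48 ± 0.20), Ctss (0.47 ± 0.29), Foxo3 (0.36 ± 0.26), Gabarap (0.34 ± 0.33), Gabarapl2 (0.25 ± 0.24), Stk11 (0.25 ± 0.22) and Wipi1 (0.18 ± 0.17). None of them passed.

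Whole blastocysts were measured, so fewer cells of a type and less RNA per cell cannot be told apart. Macrophages are rich in lysosomes, and the 12 macrophage markers, of which Cd68 and Ctss are also in the lysosome lists, had array medians of 4.56 and 4.81 on the D4-act-7g arrays, 5.10 and 4.65 on the Dor-7g arrays, and 5.08 and 4.69 on DOX-7g arrays. Of the 12, Ptprc, Adgre1, Itgam and C1qc were below the array median on all 6 arrays, and Cd68, C1qa, Cx3cr1 and Cd14 were at or above it on all 6, with Cd68 between 6.87 and 9.34. Of 11 blood markers 6 had a probeset, with array medians of 4.36 to 4.94 in D4-act-7g and Dor-7g and of 6.36 and 6.63 in DOX-7g, where the neutrophil gene S100a9 was at 9.55 on both arrays. S100a9 was also higher in Dor-7g, at 7.10 and 6.41 against 4.49 and 4.6 in D4-act-7g, and passed there (2.21 ± 0.26; limma, adjusted p = 0.0274). S100a8, its partner, was at 3.28 and 3.16 on D4-act-7g arrays, 2.81 and 7.18 on Dor-7g arrays, and 10.91 and 10.12 on DOX-7g arrays. Ly6g was at 3.65 and 4.08, 3.75 and 4.25, and 7.41 and 7.39 in the same order. The rest of the measured blood markers did not follow. In DOX-7g, Pf4 was at 4.36 and 4.49 (4.51 and 4.76 in D4-act-7g) and Ncr1 at 4.08 and 4.39 (4.22 and 4.65). Cd3e was at 5.30 and 5.87 in DOX-7g and at 5.05 and 5.43 in D4-act-7g. Of 13 uterine epithelium markers 10 were tested and none passed. In Dor-7g the arrays of 6 lay above those of D4-act-7g and of 0 below, where 24.3% and 21.5% of all genes did. In DOX-7g 5 lay above and 1 below, where 19.2% and 30.5% of all genes did. Krt19 was at 4.72 and 5.25 on D4-act-7g arrays, 5.20 and 5.57 on Dor-7g arrays, and 6.53 and 7.27 on DOX-7g arrays. The 13 markers had medians of 4.91 and 5.03 on D4-act-7g arrays, 5.47 and 5.26 on Dor-7g arrays, and 5.15 and 5.13 on DOX-7g arrays. The 9 measured stroma markers had medians of 5.32 and 4.84, 5.65 and 5.63, and 5.28 and 5.63 in the same order. Dor-7g replicate 2 stood apart in the stroma gene Dcn, at 9.29 against 3.67 to 4.22 on the other 5 arrays, and in Lum, at 5.01 against 3.44 to 4.13. The remaining measured stroma markers lay on that array within the range of the other 5 arrays. Among them, Col1a1 was at 6.56 and 6.45 on the Dor-7g arrays, Col3a1 at 5.74 and 5.51, and Vim at 6.84 and 6.14. The part of these cell types in the differences above was not tested.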

How the data were processed

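The deposited table gives, as log2 values that the authors had already normalized, the expression of 41345 probesets on each of 6 arrays. Partek 6.6 and RMA are named in the submitters' processing notes, without settings. Per the labels' protocols, 10 blastocysts were heated in water to free their RNA, a low input. For the array's annotation the genome build was not given.

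Sample titles supplied group and replicate. Gene symbols were taken from the platform's annotation and updated by Entrez identifier in a RefSeq table (GRCm38.p6): 23521 probesets had 1 symbol, 1814 several and 16010 none, and 193 identifiers were not matched. A probeset with 1 symbol was kept if 2 or more of the 6 arrays reached the array median, and each gene took its brightest one, which left 14020 genes. The tests came from limma 3.58.1 in R 4.3.3 (lmFit and eBayes), fitted to all 6 arrays with a mean for each group (3 residual and 2.81 prior degrees of freedom). Benjamini-Hochberg adjustment ran over all genes within each comparison. The comparisons share arrays. The number of arrays limits the precision.

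The 10 genes, the pathway lists and the marker lists were chosen with earlier results of these data known. Besides the 10 genes, the rule for names took every pathway gene past the threshold, the 2 genes of smallest p per list and comparison, and partners of the 10. Atg3, Cd68, the single housekeeping genes and the single marker genes were named after their values were seen. Genes of most like pattern were to be named for genes past the threshold, and none of the 10 passed. Promoter windows and the microRNA come from RefSeq. Alternatives covered scaling, filters, the probeset rule, the variance model, array weights, the threshold, a replicate block, fits to the 4 arrays compared, and leaving out each array.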

Additional observations from a re-analysis of the deposited data

How the results depend on the processing

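Of 480 values of the 10 genes under 16 alternatives, 453 kept their direction and side of the threshold, 10 came to pass it and 17 changed sign, all of them differences that did not pass. In Dor-7g against D4-act-7g, 3 genes passed without Dor-7g replicate 2 (Atg5, Map1lc3b and Lamp1) and 0 in every other alternative. In DOX-7g against D4-act-7g, 2 passed with array weights (Map1lc3b and Lamp2) and 1 with only the 4 arrays compared (Map1lc3b), with 0 to 1 over the settings that leave out an array. In DOX-7g against Dor-7g, 0 to 2 passed when an array was left out (Atg5 and Lamp1 without Dor-7g replicate 2). The cause was not tested. None of the 10 genes passed in the main fit, so no value could lose a call, and a value whose adjusted p rose counts as kept. The tally therefore does not measure how stable the differences are. Some of the values that came to pass are from fits that leave 1 array in a compared group. The 16 alternatives were not all distinct, so the tally counts some values more than once. For each comparison, leaving out either array of the third group gave the same fit as only the 4 arrays compared. Map1lc3b in DOX-7g against D4-act-7g was counted for each of these. The threshold of 0.1 kept the estimates of the main fit.

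The changes of sign were those of Lamp2 (0.08) and of Ulk1 between the dormant groups (0.04) after a second quantile normalization, and of Atg7 (-0.09), and of Ulk1 (0.07) and Map1lc3b (0.11) between the dormant groups, with centred arrays. When 1 array was left out, values in Dor-7g against D4-act-7g ran from -0.53 to 0.05 for Becn1 (0.01 without D4-act-7g replicate 1), from -0.32 to 0.39 for Atg7 (-0.10 without D4-act-7g replicate 1), from -0.08 to 0.06 for Tfeb and from -0.19 to 0.14 for Lamp2 (0.08 without D4-act-7g replicate 2). In DOX-7g against D4-act-7g they ran from -0.01 to 0.49 for Becn1 and from -0.10 to 0.45 for Atg5. Between the dormant groups they ran from -0.45 to 0.41 for Map1lc3b (0.12 without DOX-7g replicate 1) and from -0.11 to 0.49 for Gabarapl1.

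Over all genes, 138 passed in Dor-7g against D4-act-7g, 79 with array weights, 82 with a replicate block, 86 with only the 4 arrays compared, 319 at a threshold of 0.1 and 11 to 1172 without 1 array. In DOX-7g against D4-act-7g, 134 passed, 68 with probesets at or above the median on all 6 arrays, 461 with array weights, 296 with only the 4 arrays, 244 at 0.1 and 43 to 296 without 1 array. Between the dormant groups 163 passed, 81 with the stricter filter, 104 with array weights, 86 with only the 4 arrays and 67 to 880 without 1 array. Replicate numbers did not pair the arrays (correlations of their deviations of -0.02, -0.01 and -0.14), and none of the 10 genes passed with the replicate block. Where 1 array of a group was left out, the remaining one was assumed to vary like the other groups.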
